A study of Homo sapiens with 4 samples.

Results

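Epithelial-mesenchymal transition (EMT) is the programme by which sheet-forming epithelial cells loosen their contacts and take on a motile, spindle-like form. The description here covers 10 of its best known genes, CDH1, CDH2, CDH3, VIM, FN1, SNAI1, SNAI2, ZEB1, ZEB2 and TWIST1, out of 27193 gene names on the arrays. They were found by their gene names among the spots that are not array controls, which gave 23 spots for 14 different probes. All 10 genes were measured.

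MCF10A is a non-tumorigenic line of human mammary epithelial cells, and its derivative MCF10A.B2 carries a form of the receptor Her2 (ErbB2) that a chemical can switch on. The study compared 2 control samples with 2 samples that express a shRNA against PAK1, a serine-threonine kinase of the cytoskeleton and of growth factor signaling. All 4 samples were grown in DMEM/F12 with horse serum, starved of serum for 3 h and exposed to AP1510, the crosslinker that joins and activates the receptor, for 15 min before RNA was taken. Each sample was labelled with 1 dye and put on an Agilent array of human genes, and the 4 arrays share 1 slide. The labels call the control cells Pak1 wild type, and the paper's methods name them as the line itself, beside cells with a Tet inducible shRNA. Whether and how long the shRNA was induced is not stated for the arrays. A control with a non-targeting shRNA was not analysed here. The series description speaks of cells derived from tumors, 2 per group, and the samples are labelled breast cancer, whereas the sample titles and the paper name the cell line. How the samples of a group were obtained is not stated for the arrays, so p-values measure the spread between these samples, which may be technical. An exact permutation test (two-sided) of 1 gene over 2 arrays per group cannot go below 0.333, and every adjusted p below comes from limma, whose error is shared across genes.

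In epithelia the calcium-dependent adhesion protein E-cadherin (CDH1) holds neighbouring cells together at adherens junctions, P-cadherin (CDH3) does so in the basal layer of the breast, and N-cadherin (CDH2) is the form usual in mesenchymal and neural cells. Vimentin (VIM), an intermediate filament protein, and fibronectin (FN1), a matrix protein, are widely used marks of the mesenchymal state. The zinc finger proteins SNAI1, SNAI2, ZEB1 and ZEB2 bind E-box motifs and repress CDH1 and other epithelial genes, and the basic helix-loop-helix factor TWIST1 acts in the same programme. PAK1 is known to phosphorylate SNAI1. MCF10A cells have features of basal mammary cells and express vimentin and P-cadherin in culture.

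The values rest on the hybridization of RNA to probes of 60 bases, and 4 of the probes that measured these genes within their coding sequence are shown here because the vimentin, fibronectin, ZEB2 and TWIST1 results rest on them. Positions are given in hg19 as the scanner files have them, and the sequences are written 5′ to 3′ in lower case.
VIM, A_23_P161190, chr10:17278347-17279256, plus strand: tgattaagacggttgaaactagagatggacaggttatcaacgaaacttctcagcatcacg
FN1, A_24_P334130, chr2:216288217-216288895, minus strand: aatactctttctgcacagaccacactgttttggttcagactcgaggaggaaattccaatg
ZEB2, A_33_P3243832, chr2:145182363-145182422, minus strand: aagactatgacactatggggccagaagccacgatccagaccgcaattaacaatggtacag
TWIST1, A_33_P3414591, chr7:19156462-19156521, minus strand: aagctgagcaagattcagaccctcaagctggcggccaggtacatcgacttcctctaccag
The VIM and FN1 probes cover 910 and 679 bases of the genome with 60 bases of sequence, so each one joins separate exons. The FN1 probe was the only one for this gene and, like every other probe of the members, is annotated to a single transcript. It may not measure all fibronectin messages, which was not tested.

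The members did not move in 1 direction. With limma and a threshold of 0.05 on the p adjusted by Benjamini-Hochberg over 22001 genes, 5 were higher in PAK1 shRNA cells (CDH1, CDH3, FN1, ZEB1 and ZEB2), 4 were lower (CDH2, SNAI1, SNAI2 and TWIST1) and VIM did not pass. With each probe tested apart, 8 of the 14 probes were higher and 5 were lower, while 63.9% of all 27517 probes tested were called. The arrays differed widely between the groups: 31.1% of all genes tested were higher and 31.8% were lower, 62.9% in all, so that 9 of 10 members called is to be read against that share. A change of at least 2-fold was called for 4 members (SNAI2, FN1, ZEB1 and ZEB2) and for 17.8% of all genes tested. In all 10 members the arrays of the groups did not overlap, which was also the case for 81.8% of all genes tested. The median log2 fold change of the members was 0.36 and that of all genes was 0.02. FN1 passed the filter on dim probes through the PAK1 shRNA arrays only, and the other 9 members passed it in both groups.

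**Figure D1:**
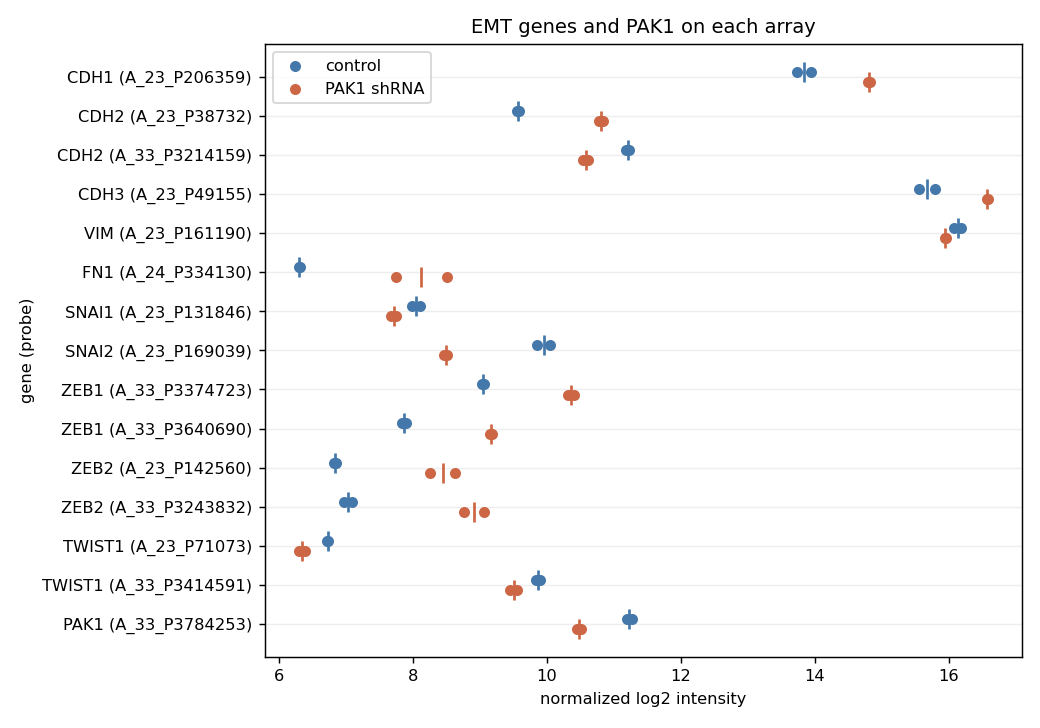
Normalized log2 intensity (horizontal axis) of each probe of the 10 EMT genes and of PAK1 (vertical axis) on the 2 control and the 2 PAK1 shRNA arrays; points are arrays and vertical ticks group means. The groups do not overlap for any probe, and the PAK1 shRNA arrays lie farthest apart for FN1, at 7.74 and 8.50.

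PAK1, the target of the shRNA, had normalized log2 intensities of 11.19 and 11.27 on the control arrays against 10.45 and 10.51 with the PAK1 shRNA. Neither shRNA array reached the control arrays. The difference was -0.75 on the log2 scale (standard error, SE, 0.08, limma adjusted p = 0.00018), which is 59.5% of the control level. The correlation of the arrays over genes was 0.9979 within the control group and 0.9983 within the PAK1 shRNA group, against 0.9335 to 0.9432 between groups. Between 78.9% and 83.1% of probes were well above background on the 4 arrays, whose number limits the precision.

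Among the cadherins, the epithelial forms rose. CDH1, on chromosome 16 at 68869214 to 68869273, was measured by 1 probe printed 10 times on each array. Its log2 intensity was 13.93 and 13.73 on the control arrays against 14.82 and 14.80 with the PAK1 shRNA. Both PAK1 shRNA arrays lay above both control arrays. The 10 spots within an array spread by an SD of 0.15 to 0.18, which measures repeat spots of the same RNA and not the spread between samples. CDH1 rose by 0.98 on the log2 scale (SE 0.09, limma adjusted p = 0.00012), or 1.97-fold higher, and 90.8% of all genes had a lower value. As scanned, before background correction and normalization, its mean signal was 20480 and 14180 on the control arrays against 24740 and 24630 with the PAK1 shRNA, so the order of the groups was the same before scaling.

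CDH3, on chromosome 16 at 68732812 to 68732871, gave the same picture. Its log2 intensity was 15.79 and 15.56 on the control arrays against 16.56 and 16.58 with the PAK1 shRNA, with a gap between the groups far wider than the difference within either. CDH3 rose by 0.90 on the log2 scale (SE 0.10, limma adjusted p = 0.00022), or 1.86-fold higher. CDH3 and CDH1 are consecutive protein coding genes in the RefSeq annotation of GRCh38.p14, and the hg19 positions of the CDH3 and CDH1 probes are 136 kb apart. No spot of either gene was saturated.

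For CDH2 the answer depended on the probe. The brighter probe, A_33_P3214159 on chromosome 18 at 25530936 to 25530995, read 11.17 and 11.23 in control cells and 10.62 and 10.54 in PAK1 shRNA cells. It was lower on both shRNA arrays, with a log2 fold change of -0.62 (SE 0.08, limma adjusted p = 0.00041), and it stands for the gene in the counts above. The second probe, A_23_P38732 at 25532081 to 25532140, read 9.55 and 9.59 in control cells and 10.77 and 10.84 in PAK1 shRNA cells. It was higher on both shRNA arrays, with a log2 fold change of 1.24 (SE 0.07, limma adjusted p = 1.05e-05 over all probes). Both CDH2 probes are annotated to the same transcript of the minus strand and lie 1085 bases apart, the falling one nearer to its 3′ end. Both were well above background on all 4 arrays and neither was flagged. Over 8 ways of background correction and scaling, the brighter probe ranged from -0.74 to -0.55 and the second from 1.03 to 1.29 in log2 fold change. The direction of N-cadherin mRNA is therefore not settled by these arrays, and the cause of the disagreement was not tested.

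**Figure D2:**
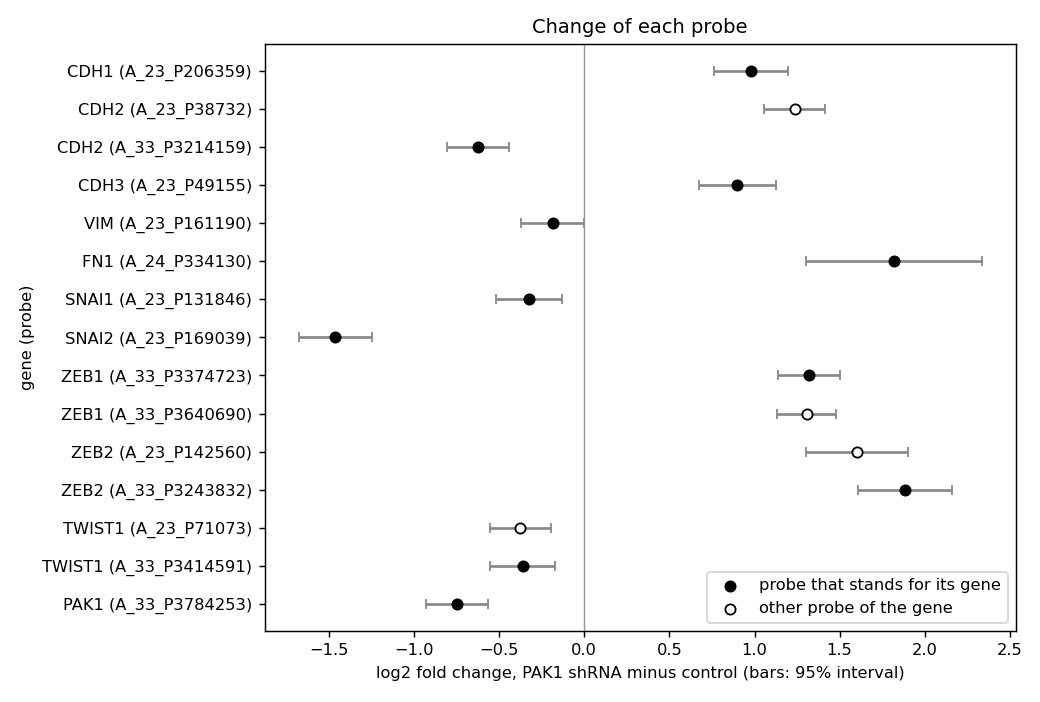
Log2 fold change (PAK1 shRNA minus control, horizontal axis) of each probe of the 10 EMT genes and of PAK1 (vertical axis), with bars for the 95% confidence interval from limma; filled points stand for the gene and open points are its other probe. The CDH2 probes lie on opposite sides of 0, at -0.62 and 1.24, while the probe pairs of ZEB1, ZEB2 and TWIST1 lie together.

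The mesenchymal markers differed from each other. VIM, an abundant message in these cells, read 16.08 and 16.18 on the control arrays against 15.96 and 15.93 with the PAK1 shRNA. The shRNA arrays were slightly lower, and the difference did not pass: the log2 fold change was -0.19 (SE 0.08, limma adjusted p = 0.072), with a 95% interval from -0.37 to -0.003 before adjustment. VIM is therefore given by its values and not as a change. Under cyclic loess in place of quantile normalization the log2 fold change of VIM was 0.02. No VIM spot was saturated.

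FN1 was dim and rose. It read 6.30 and 6.31 on the control arrays against 7.74 and 8.50 with the PAK1 shRNA. Both shRNA arrays were higher, and they differed from each other by more than the arrays of any other member. The log2 fold change was 1.82 (SE 0.22, limma adjusted p = 0.00043), or 3.53-fold higher. The signal as scanned was 69.3 and 60.3 in control cells and 180 and 294 in PAK1 shRNA cells over a local background of 42 to 45, and on control array 2 the spot was not well above background. The size of the change moved with the processing. It was 1.01 with normexp fitted on all spots, 2.07 without background correction and 2.43 with an offset of 16, all under quantile normalization, and 4.16 with the scanner's processed signal, where background, offset and scaling differed together.

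Other mesenchymal genes were counted from a list of 20, of which 18 were tested. In PAK1 shRNA cells 12 were higher and 4 were lower, and the median log2 fold change was 0.46 beside 0.02 for all genes. Of all genes tested, 31.1% were higher and 31.8% were lower, and the list counts from here on are to be read against those shares. FAP, a serine protease of activated fibroblasts, rose from 9.88 to 12.60 with a log2 fold change of 2.72 (SE 0.08, limma adjusted p = 9.3e-07). AXL, a receptor tyrosine kinase, rose by 1.56 on the log2 scale. Among the 4 that were lower, S100A4, a calcium-binding protein, fell by 1.03 (limma adjusted p = 3.7e-05) and SPARC, a matrix glycoprotein, by 0.87 (limma adjusted p = 6.4e-05), both named after their values were seen. THY1 and POSTN were not tested because their probes were not well above background on both arrays of a group. Of 8 receptors or coreceptors of fibronectin, 7 were tested, 5 were higher and 1 was lower, with a median of 0.71. ITGA5, the alpha subunit of the classical fibronectin receptor, rose by 2.42 and the proteoglycan SDC4 by 2.03, while ITGA4 fell by 1.16. In this receptor list ITGB3 passed the filter through the PAK1 shRNA arrays only.

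The transcription factors split by family. SNAI2, which encodes Slug, fell most. Its probe lies on chromosome 8 at 49830710 to 49830769 and read 9.85 and 10.05 on the control arrays against 8.51 and 8.47 with the PAK1 shRNA. The groups were far apart compared with the spread of either. The difference was -1.46 on the log2 scale (SE 0.09, limma adjusted p = 1.9e-05), which leaves 36.3% of the control level.

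SNAI1, which encodes Snail, was dimmer and changed less. Its probe on chromosome 20 at 48605170 to 48605229 read 7.98 and 8.10 on the control arrays against 7.68 and 7.75 with the PAK1 shRNA. Here too the shRNA arrays were both lower, by a log2 fold change of -0.33 (SE 0.08, limma adjusted p = 0.011), or 79.7% of the control level. This call was lost without control replicate 2 (-0.27, adjusted p = 0.055) and without PAK1 shRNA replicate 1 (-0.29, adjusted p = 0.064), and under median centring (-0.21, adjusted p = 0.079).

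ZEB1 and ZEB2 both rose, each by 2 probes. The brighter ZEB1 probe, on chromosome 10 at 31818063 to 31818122, read 9.03 and 9.06 on the control arrays against 10.32 and 10.41 with the PAK1 shRNA. The log2 fold change was 1.32 (SE 0.08, limma adjusted p = 1.4e-05), or 2.50-fold higher, and the other ZEB1 probe, at 31816261 to 31816320, gave 1.31. Both shRNA arrays were higher with either probe, and the difference between the arrays of a group was a small part of the change.

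ZEB2 was dim in control cells. The probe shown above read 7.09 and 6.96 on the control arrays against 8.76 and 9.07 with the PAK1 shRNA, with both shRNA arrays higher. The log2 fold change was 1.88 (SE 0.12, limma adjusted p = 2e-05), or 3.69-fold higher. The other ZEB2 probe lies 36 kb away at 145146261 to 145146320 and gave 1.60 (SE 0.13). Neither ZEB2 probe was at background on any array. The size of the ZEB2 change moved with the background correction, from 1.15 with normexp fitted on all spots to 2.21 with an offset of 16, and its direction did not. It was 2.74 with the scanner's processed signal, where the scaling differed as well.

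TWIST1 fell a little. The probe shown above read 9.89 and 9.83 on the control arrays against 9.56 and 9.44 with the PAK1 shRNA. Again the shRNA arrays were both lower, and the log2 fold change was -0.36 (SE 0.08, limma adjusted p = 0.0069), or 77.9% of the control level. The second TWIST1 probe, at 19155645 to 19155704, gave -0.38, and its spot was not well above background on PAK1 shRNA array 2. Over 8 ways of background correction and scaling, this second probe ranged from -0.81 to -0.08 and the brighter one from -0.44 to -0.29.

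Among the factors known to repress CDH1, ZEB1 and ZEB2 were thus higher on the arrays on which CDH1 was higher, and SNAI1 and SNAI2 were lower there. Fewer cells of a type and less RNA per cell cannot be told apart in such bulk samples.

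Promoter sequence was looked up for the members in RefSeq (GRCh38.p14), and 5 of the 10 matched (CDH2, FN1, VIM, ZEB1 and ZEB2), with 12 annotated starts. CDH1, CDH3, SNAI1, SNAI2 and TWIST1 did not match. The E-box that ZEB and SNAI proteins bind was searched as CAGGTG and as its reverse complement CACCTG, which covers both strands, in the 250 bases before each start. It was present before 2 of the 7 ZEB1 starts and before none of the starts of CDH2, FN1, VIM and ZEB2, and 17.5% of all 35116 promoters held it. The windows before the first ZEB1 start (plus strand) and before the ZEB2 start (minus strand) are shown since both genes rose, 5′ to 3′ with the E-box in capitals.
ZEB1, chr10:31318167-31318416: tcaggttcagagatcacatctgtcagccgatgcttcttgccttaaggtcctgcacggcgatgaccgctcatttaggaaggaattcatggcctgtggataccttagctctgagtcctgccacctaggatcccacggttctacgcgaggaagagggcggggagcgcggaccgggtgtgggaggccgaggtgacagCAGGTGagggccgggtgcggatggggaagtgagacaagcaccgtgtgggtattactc
ZEB2, chr2:144520120-144520369: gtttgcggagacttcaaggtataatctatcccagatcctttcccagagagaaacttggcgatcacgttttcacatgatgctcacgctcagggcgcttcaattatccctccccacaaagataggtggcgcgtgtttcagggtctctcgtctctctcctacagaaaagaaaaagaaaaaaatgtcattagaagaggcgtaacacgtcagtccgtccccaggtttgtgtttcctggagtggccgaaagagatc

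The surrounding regulators were as divided as the members. Of 15 other transcription factors tied to EMT, 12 were tested, 5 were higher and 5 were lower, with a median log2 fold change of -0.19. LEF1, the Wnt pathway factor, fell by 1.69 and TCF3, which encodes E2A proteins, fell by 1.39. FOXC2 and SNAI3 passed the filter through the control arrays only. Of 12 regulators of the epithelial state, 11 were tested and 4 were higher and 4 were lower, with a median of 0.13. KLF4, a zinc finger factor, rose by 3.59 (SE 0.13, limma adjusted p = 2.2e-06). OVOL1, a repressor of mesenchymal genes, rose by 1.18, while EHF, an epithelial ETS factor, fell by 2.76. Among 18 corepressors of SNAI1 and ZEB1 and proteins that set SNAI1 turnover, all tested, 6 were higher and 7 were lower, with a median of -0.07. BTRC, the ubiquitin ligase subunit that recognises phosphorylated SNAI1, fell by 1.33 and HDAC2, a histone deacetylase, by 0.98, while FBXL5, another ligase subunit, rose by 0.94.

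Cadherin complexes were counted in the same way. Of 10 adherens junction partners, all tested, 4 were higher and 3 were lower, with a median of 0.10. The cell adhesion protein NECTIN2 (PVRL2 on the array) rose by 2.26 and AFDN (MLLT4 on the array), which ties nectins to actin, by 0.91, while vinculin (VCL) fell by 0.64. None of the 4 catenin genes on the list passed as higher. CTNNB1 had a log2 fold change of 0.10 (limma adjusted p = 0.42) and JUP one of 0.10 (limma adjusted p = 0.32), while CTNNA1 fell by 0.48 and CTNND1 by 0.63. These 4 were named after their values were seen. Of 19 other cadherins, 14 were tested, 8 were higher and none was lower, beside 31.1% higher and 31.8% lower of all genes. The median of these cadherins was 0.50. None was lower at an unadjusted p under 0.05 from limma or with the Student t test either. CDH16 rose by 2.58, CDH18 by 2.14 and CDH4 by 1.97, from levels of 7.28, 6.97 and 7.46 in control cells. CDH11 passed the filter through the PAK1 shRNA arrays only, and without a filter the list median over the 19 genes was 0.12.

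Markers of cell type were measured beside these genes. All 9 basal mammary epithelial markers were well above background on all 4 arrays, and their mean log2 intensity was 15.10 and 15.02 on the control arrays against 14.44 and 14.35 with the PAK1 shRNA. The mean includes KRT15 (-1.81), whose probe was saturated on at least 1 array. In that list 6 genes were lower and 1 was higher, with a median log2 fold change of -0.72. KRT5, KRT14 and TP63 fell by 1.14, 0.96 and 1.13. KRT6A rose by 0.31, while ITGB4 (0.11) and ITGA6 (-0.07) did not pass. Of 8 luminal markers 7 were tested, 3 were higher and 2 were lower, and the mean level was 10.91 and 10.89 against 11.13 and 11.13. Of 7 fibroblast markers, 3 were well above background on all 4 arrays (COL1A1, LUM and DCN), and COL1A2, COL3A1 and PDGFRA were not so on any array. The mean level of the fibroblast list was 7.52 and 7.40 in control cells and 7.89 and 7.91 in PAK1 shRNA cells. Of the 4 fibroblast markers tested, 3 were higher and 1 was lower. The lower one, PDGFRB (-0.58), passed the filter through the control arrays only. The means of the 4 endothelial markers were 7.76 and 7.77 against 7.54 and 7.52, but only PECAM1 was lower (-1.56), VWF was higher (0.37), and the list median was 0.13. Those of the 4 leukocyte markers were 9.01 and 9.02 against 9.43 and 9.45, and only CD14 passed, with a log2 fold change of 1.32 beside a list median of 0.13. The part of these levels in the changes of the EMT genes was not tested.

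**Figure D3:**
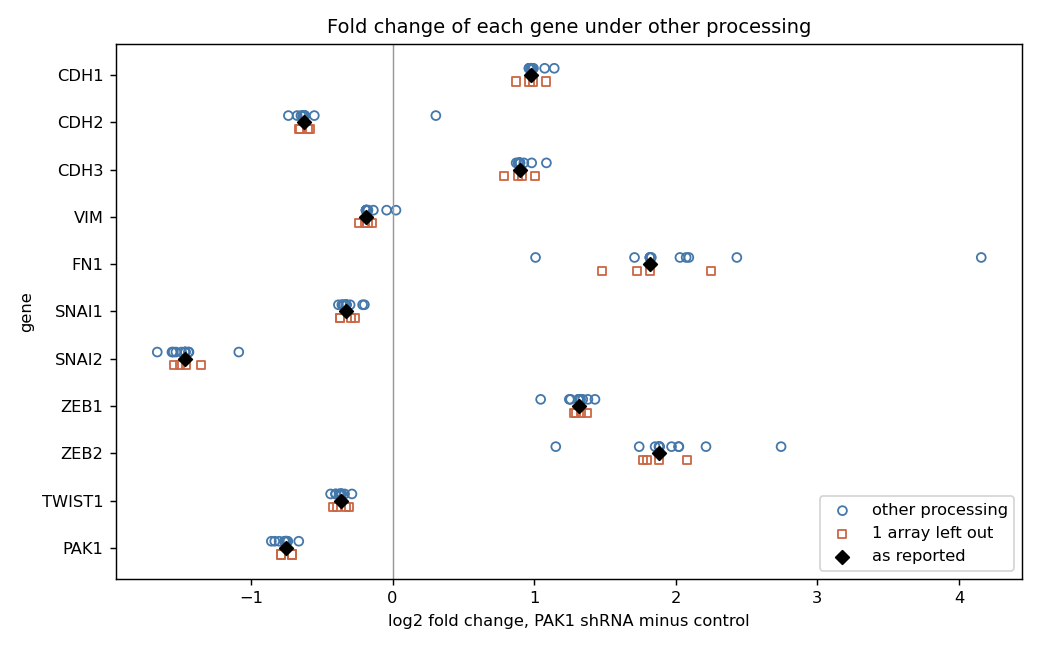
Log2 fold change (PAK1 shRNA minus control, horizontal axis) of each EMT gene and of PAK1 (vertical axis) as reported (diamonds), with other choices of background correction, normalization, filter and probe (circles) and with 1 array left out (squares). CDH2 crosses 0 when its probes are averaged, at 0.31, VIM crosses 0 under cyclic loess, at 0.02, and FN1 and ZEB2 spread most.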

How the data were processed

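RNA of 2 control and 2 PAK1 shRNA samples, grouped by their labels, was hybridized in 1 colour. The deposited scanner files hold an intensity per spot, written by Agilent Feature Extraction 9.5.3.1 (version 9.5 in the submitters' notes), and log2 values per probe in the authors' own table served as an alternative. Mean signals were corrected with normexp (offset 50), quantile normalized and tested by limma 3.58.1 (lmFit, eBayes) under R 4.3.3. The methods name normexp, quantile normalization and limma, but no offset, filter or probe rule. The parameters of normexp were fitted without the spots of flagged background. On the control arrays the fitted background mean was -666 and -740 with all spots, against -9.19 and -12.1 without the flagged ones. On the PAK1 shRNA arrays it changed little. The control arrays held 8 and 18 spots of very high local background, and whether these alone moved the fit was not tested. Flagged spots were left out, spots of a probe averaged, a probe kept if both arrays of a group had it well above background, and the brightest probe stood for its gene; "well above" means at least 50% of a probe's spots. p-values were adjusted over all genes. The members and lists were chosen with earlier results of these data known. The genes named are all members with every probe, PAK1, and from each list up to 3 called genes of largest change that were well above background and unsaturated on all arrays; some of these are not reported here. Older symbols were matched through a RefSeq table of GRCh38.p14. The test was checked on simulated data. The slide could not be a block, since there was 1.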

Additional observations from a re-analysis of the deposited data

How the results depend on the processing

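Results were recomputed with other settings of the background, scaling, filter, probe rule, test and threshold, with the replicate numbers as a block, and without each array. CDH2 changed direction with the mean over its probes (0.31, limma adjusted p = 0.0076) and VIM under cyclic loess (0.0244). VIM passed the threshold with normexp fitted on all spots (-0.19, adjusted p = 0.033). SNAI1 lost its call under median centring (-0.21), and with an unpaired Student t test per gene FN1 (1.82, adjusted p = 0.079), SNAI1 (-0.33) and TWIST1 (-0.36, adjusted p = 0.066) lost theirs. That test called 4418 higher genes, 9167 in all after Benjamini-Hochberg adjustment and 12122 at an unadjusted p under 0.05. At a threshold of 2-fold 1949 genes were higher and 1967 lower, and CDH1 (0.98), CDH2 (-0.62), CDH3 (0.90), SNAI1 (-0.33) and TWIST1 (-0.36) were no longer called. No other member lost or gained a call outside the arrays left out. With 1 array left out the single array is assumed to vary as the others do, and SNAI1 ranged from -0.37 to -0.27. FN1 without an array ranged from 1.48 to 2.25, and was not tested with the filter on all arrays. The median of all genes was 0.14 under median centring and 0.12 with the 75th percentile, against 0.02. Samples of the same number did not deviate together (r = 0.00921 over 27517 probes). This shows no large shared deviation, but cannot tell whether samples of the same number were prepared as pairs. With the replicate block 14100 genes were called against 13839, 7016 of them higher, and no member's call changed. List medians and counts were labelled as moved in 50 comparisons and not in 349. Small shifts were not labelled: the count of higher mesenchymal markers went from 12 to 10 with the Student t test. Medians could not move where only the test or the threshold changed. The 349 are therefore no measure of stability.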
